A study of Mus musculus with 9 samples.

Results

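The glycolytic enzymes examined here were 10 named genes, Hk1, Hk2, Gpi1, Pfkl, Pfkp, Aldoa, Pgk1, Eno1, Pkm and Ldha, taken from the expression table by gene name. They occupied 11 of the 54532 listed gene identifiers, since the name Aldoa belongs to 2 of them, the principal locus and a short locus upstream of it. Their mRNA was measured by RNA sequencing in B.END3 cells, a mouse brain endothelial line (strain C57BL/6 per the labels). The methods of the paper call the cells rat, while its introduction and the gene identifiers are for mouse. The 9 libraries comprised 3 of untreated cells (Ctrl), 3 of cells after photodynamic therapy (PDT) at 10 J/cm2 (Ep1) and 3 after PDT at 20 J/cm2 (Ep2). For PDT, a monolayer was kept with porfimer sodium, a photosensitizer that generates reactive oxygen species under red light, at 300 µg/mL for 90 min and then irradiated at 635 nm and 100 mW/cm2. Ctrl received neither agent, so the effects of porfimer sodium and of light cannot be told apart in a comparison with Ctrl, whereas Ep2 and Ep1 differ in light dose. The time between light and harvest of the RNA is not given in the sources used here. The libraries come from a single cell line, the sources used here do not state separate cultures, and p-values then measure only the spread between these libraries, which may be technical.

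Glycolysis splits glucose into pyruvate in the cytosol and yields ATP and NADH, and brain endothelial cells are known to rely on it heavily. Hexokinase traps glucose as glucose-6-phosphate, phosphofructokinase commits the sugar to the pathway, aldolase cuts it into triose phosphates, phosphoglycerate kinase and pyruvate kinase return ATP, and lactate dehydrogenase regenerates NAD+ by turning pyruvate into lactate. Many of these genes are textbook targets of hypoxia-inducible factors, which bind a short core, ACGTG or GCGTG, and of MYC, which binds the E-box CACGTG.

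The promoters of 4 members are printed because they cover the range of responses described below: Pfkp and Pgk1 (higher in Ep2), Hk2 (no call) and Eno1 (lower in Ep2). They were chosen by response, so their match counts show no order. Each is the 200 bases before the transcription start in RefSeq on GRCm38.p6, 5′ to 3′ on the strand of the gene, with capitals for ACGTG or GCGTG on either strand. The positions are chr13:6648772-6648971 on the minus strand for Pfkp, chrX:106186900-106187099 on the plus strand for Pgk1, chr6:82774455-82774654 on the minus strand for Hk2 and chr4:150236508-150236707 on the plus strand for Eno1.
Pfkp: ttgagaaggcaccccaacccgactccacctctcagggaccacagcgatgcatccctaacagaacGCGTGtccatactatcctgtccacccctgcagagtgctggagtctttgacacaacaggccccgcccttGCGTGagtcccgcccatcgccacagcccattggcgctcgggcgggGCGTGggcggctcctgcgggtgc
Pgk1: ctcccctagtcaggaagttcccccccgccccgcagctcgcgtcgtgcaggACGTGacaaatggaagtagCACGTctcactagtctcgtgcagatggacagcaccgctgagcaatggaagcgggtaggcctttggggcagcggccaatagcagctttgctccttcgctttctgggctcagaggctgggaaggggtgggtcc
Hk2: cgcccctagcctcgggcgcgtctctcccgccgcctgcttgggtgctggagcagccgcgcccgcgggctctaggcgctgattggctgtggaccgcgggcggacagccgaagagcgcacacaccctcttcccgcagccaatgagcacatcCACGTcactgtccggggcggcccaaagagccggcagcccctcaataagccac
Eno1: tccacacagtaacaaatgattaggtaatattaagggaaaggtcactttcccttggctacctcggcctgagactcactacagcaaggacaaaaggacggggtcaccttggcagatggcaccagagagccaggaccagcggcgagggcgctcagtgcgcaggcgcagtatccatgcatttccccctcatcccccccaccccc

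The printed stretch held 3 core matches for Pfkp, 2 for Pgk1, 1 for Hk2 and 0 for Eno1. All 10 members matched the promoter table, in windows from 250 bases before to 50 after a start. The core ACGTG or GCGTG (either strand) occurred in 6 of the 10 windows, those of Eno1, Hk2, Ldha, Pfkl, Pfkp and Pgk1, compared to 43.8% of all 32851 windows; the match of Eno1 lay outside its printed stretch. Of the members called higher in Ep2, Pfkp and Pgk1 held the core in their windows, and Hk1 and Gpi1 did not. Of those not called higher, Eno1, Hk2, Ldha and Pfkl held it, and Aldoa and Pkm did not. A relation between matches and responses was not tested. The E-box CACGTG, which contains ACGTG, occurred in 1 of 10 windows (Ldha), compared to 7.15% of all windows. The GC box GGGCGG (either strand), the site of SP factors, occurred in 7 of 10, compared to 35.7% of all windows. The window used for Ldha starts 4329 bases from the listed start of the gene, and those of Aldoa, Pfkl and Pkm lay 304, 276 and 208 bases from theirs. These matches describe letters only and are not measured binding sites.

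Totals per library ranged from 16240688 to 19509225 fragments on genes. The endothelial label had little support from its markers: of 12 listed, only Flt1, Egfl7 and Eng had a mean of at least 1 FPKM (fragments scaled to gene length and library depth), and 8 were under 1 FPKM in every library, among them Pecam1, Kdr, Tie1, Cldn5, Vwf and Emcn, the last at 0 throughout. The epithelial keratins Krt8 and Krt18 reached 562 to 714 and 231 to 332 FPKM. The other listed epithelial markers were low or absent. Epcam had 0.607 to 2.03 FPKM, Krt14 at most 0.0597, Cdh1 at most 0.103, and Krt5 was at 0 throughout. The 12 endothelial markers summed to 11.4 to 11.9 FPKM in Ctrl, 11.3 to 13.1 in Ep1 and 14.4 to 15.4 in Ep2, with Flt1 as the single one called (log2 fold change 0.59 in Ep2 compared to Ctrl, limma adjusted p = 9.67e-05), Egfl7 at -0.25 (adjusted p = 0.228) and Eng at -0.13 (adjusted p = 0.274). The 6 epithelial markers summed to 859 to 902, 798 to 860 and 900 to 1049 FPKM in the same order of groups. No leukocyte, erythroid or pericyte marker reached 1 FPKM. Of 6 neural markers, Tubb3 had a mean of at least 1 FPKM, with 0.658 to 1.91 over the libraries, and the other 5 were under 1 FPKM in every library. The part of these markers in the results below was not tested, and in bulk libraries fewer cells of a type cannot be told apart from less RNA per cell. Ep2 replicate 1 stood apart for the enzymes: it was the highest Ep2 library for 10 of 10, a median of 15.3% above the mean of the other two (2.55% to 35.7%), while it was the highest for 38.9% of all 11727 tested genes. Ep1 replicate 1 was likewise the highest Ep1 library for 10 of 10 (median 9.01% above the other two), against 35.6% of all tested genes. In untreated cells, Ctrl replicate 2 was the highest Ctrl library for 8 of 10 (median 3.61% above the other two), against 32.9% of all tested genes.

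In untreated cells the enzymes fell into a high and a low tier. Eno1 (946 ± 16.3 FPKM, SD, n = 3), Ldha (922 ± 27.3) and Pkm (875 ± 17.0) were at the top, followed by Pgk1 (706 ± 28.8) and Aldoa (500 ± 24.2). The top 3 were among the 31 most abundant of all listed genes by the mean over the 9 libraries. The libraries of Eno1 and Ldha overlapped, as did those of Ldha and Pkm, so their order is not set by these data. Gpi1 (97.3 ± 1.59 FPKM) and Pfkl (47.9 ± 1.79) came next. Pfkp (26.2 ± 0.689), Hk2 (25.8 ± 0.133) and Hk1 (25.5 ± 0.741) shared the lowest level with overlapping libraries. Taken singly, Hk1, Hk2, Pfkl and Pfkp were thus about an order of magnitude or more below Aldoa, Pgk1, Eno1, Pkm and Ldha. This did not hold for every late step, since Pgam1, not a member, was at 328 FPKM in Ctrl. Levels in FPKM also depend on the listed gene length, for example 13401 bases for Pfkp and 2244 for Pgk1. In Ep2 the order changed at both ends: Pgk1 moved from the fourth place to the second and Eno1 from the first to the fourth, with overlapping libraries among Ldha, Pgk1, Pkm and Eno1. Pfkp at 37.3 ± 4.40 FPKM came to overlap Pfkl at 43.9 ± 4.56.

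**Figure D1:**
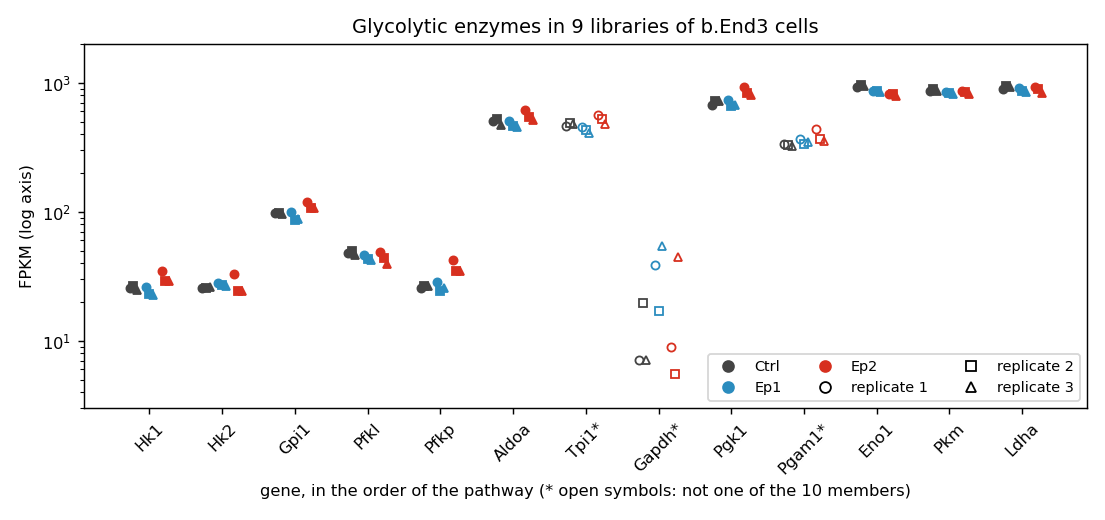
FPKM (log axis) of the 10 enzymes (filled symbols) and of Tpi1, Gapdh and Pgam1 (open symbols) in pathway order, with color for the group and shape for the replicate. Hk1, Hk2, Pfkl and Pfkp lie under 50 FPKM, Aldoa, Pgk1, Eno1, Pkm and Ldha lie between 458 and 964 FPKM, and Gapdh scatters from 5.51 to 54.3 FPKM with overlapping groups.

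After 20 J/cm2 the pathway did not move as a block. Pfkp, Pgk1, Hk1 and Gpi1 were higher than in Ctrl, Eno1 was lower, and the principal Aldoa locus, Hk2, Pfkl, Pkm and Ldha did not pass the test. These calls are an adjusted p below 0.05 in limma on log2(FPKM + 1), adjusted over all 11727 tested genes. All 11 identifiers passed the filter of at least 1 FPKM in at least 3 libraries. The short Aldoa locus passed it through the libraries in which it was high. Its lower level in Ep2 is therefore only described, and counts and medians are given for the 10 principal loci. Of these, 5 were called (4 higher, 1 lower), beside 53.2% of all tested genes (23.9% higher, 29.3% lower). No principal locus passed the fold threshold of an absolute log2 fold change above 0.6, which 9.17% of all tested genes passed. The median log2 fold change was 0.11 for the principal loci and -0.03 for all tested genes. The libraries of Ep2 and Ctrl did not overlap for 5 of them, 4 higher and 1 lower in Ep2, against 59.7% of all tested genes (27.0% higher, 32.7% lower).

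After 10 J/cm2, Eno1 alone was called, as lower, which is 1 of 10 principal loci compared to 11.3% of all tested genes (6.32% higher, 4.97% lower). Hk2 was the single member with all Ep1 libraries above all Ctrl libraries, and Eno1 and Pkm were the members with all of them below, against 41.3% of all tested genes without overlap (20.8% higher, 20.5% lower). Their median log2 fold change was -0.08, compared to -0.01 for all tested genes, and none reached the fold threshold, which 0.793% of all tested genes passed. Between the doses, 5 of 10 were called, all higher in Ep2, against 44.0% of all tested genes (18.8% higher, 25.2% lower). Libraries of both doses did not overlap for 6 of the 10, 5 higher and 1 lower in Ep2, against 54.4% of all tested genes (24.1% higher, 30.3% lower). The median was 0.13 for the principal loci and -0.01 for all tested genes, and none reached the fold threshold, which 5.90% of all tested genes passed. The Ctrl libraries enter both dose comparisons and the Ep1 and Ep2 libraries each enter a further one, so the 3 comparisons are not independent.

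**Figure D2:**
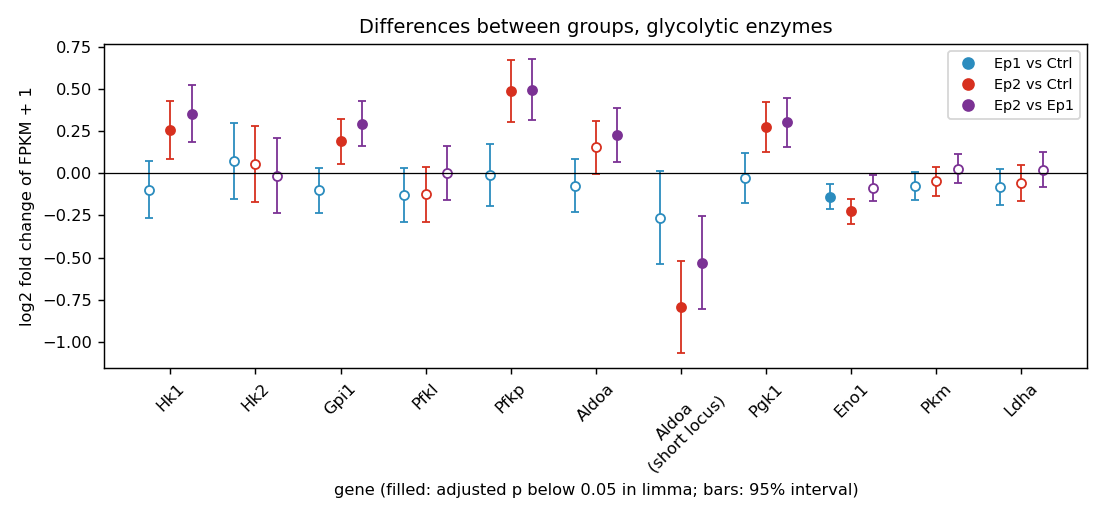
Log2 fold change of FPKM + 1 (vertical axis) with 95% intervals from limma for each enzyme identifier in the 3 comparisons, filled where the adjusted p was below 0.05. The short Aldoa locus passed the filter through libraries in which it was high, so its symbols and intervals are descriptive only and are no test result. Pfkp is the highest in Ep2 against Ctrl at 0.49, the short Aldoa locus is the lowest at -0.79, and Eno1 is filled below 0 for both doses.

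Hk1 and Hk2 encode the hexokinases that bind the outer mitochondrial membrane. Hk1 (ENSMUSG00000037012, chromosome 10, 62268855 to 62379908 on GRCm38, minus strand) had 25.4, 26.3 and 24.9 FPKM in Ctrl replicates 1 to 3, 25.9, 22.9 and 22.8 in Ep1, and 34.5, 29.0 and 28.9 in Ep2. The Ep2 libraries were above those of Ctrl and Ep1, with replicate 1 the highest, while Ep1 and Ctrl overlapped. Hk1 rose by 0.26 on the log2 scale in Ep2 compared to Ctrl (SE 0.075, limma adjusted p = 0.0169) and by 0.35 compared to Ep1 (adjusted p = 0.00449). The first call was lost without Ctrl replicate 3 (0.24, adjusted p = 0.0522, range over the alternatives 0.00188 to 0.0522), and held without Ep2 replicate 1 (0.17, adjusted p = 0.033). In Ep1 compared to Ctrl the difference was -0.10 (adjusted p = 0.426).

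Hk2 (ENSMUSG00000000628, chromosome 6, 82725025 to 82774454, minus strand), whose promoter is printed above, had 25.6, 25.8 and 25.9 FPKM in Ctrl, 27.8, 26.9 and 26.8 in Ep1, and 32.9, 24.4 and 24.2 in Ep2. Ep2 replicate 1 lay above every Ctrl library and the other two Ep2 libraries below all of them. The difference between Ep2 and Ctrl was 0.06 (95% interval -0.17 to 0.28, limma adjusted p = 0.656), and it was -0.08 without Ep2 replicate 1 (adjusted p = 0.0762). Between Ep2 and Ep1 it was -0.01 (adjusted p = 0.927), and without Ep2 replicate 1 it was -0.16 and passed the test (adjusted p = 0.00833, range over the alternatives 0.00833 to 0.999). The Ep1 libraries were all above the Ctrl libraries, by 0.07 on the log2 scale (95% interval -0.15 to 0.29, adjusted p = 0.677).

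Gpi1 (ENSMUSG00000036427, chromosome 7, 34201330 to 34230336, minus strand) encodes the isomerase that turns glucose-6-phosphate into fructose-6-phosphate. Its levels were 98.3, 98.2 and 95.5 FPKM in Ctrl, 99.0, 86.2 and 87.2 in Ep1, and 118, 108 and 108 in Ep2. All Ep2 libraries were above all others. Gpi1 rose by 0.19 in Ep2 compared to Ctrl (SE 0.059, limma adjusted p = 0.0220), a call that was lost without Ctrl replicate 2 (0.20, adjusted p = 0.0514), without Ctrl replicate 3 (0.18, 0.0635), without Ep2 replicate 1 (0.15, 0.0599) and without a filter (0.19, 0.0583), in a range over the alternatives of 0.00204 to 0.0635. Compared to Ep1 it rose by 0.29 (adjusted p = 0.00351), which held in all 18 alternatives.

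The phosphofructokinases catalyse the committing step. Pfkp, the platelet-type subunit (ENSMUSG00000021196, chromosome 13, 6579768 to 6648777, minus strand), had 25.4, 26.6 and 26.6 FPKM in Ctrl, 28.4, 24.5 and 25.4 in Ep1, and 42.4, 34.8 and 34.8 in Ep2. The lowest Ep2 library was above the highest of both other groups, and Ep1 overlapped Ctrl. Pfkp had the largest rise of the members in Ep2, 0.49 on the log2 scale compared to Ctrl (SE 0.081, limma adjusted p = 0.000839), a mean 1.42 times that of Ctrl, and 0.50 compared to Ep1 (adjusted p = 0.00108). Both calls held in all 18 alternatives, and without Ep2 replicate 1 the rise over Ctrl was 0.39 (adjusted p = 0.000709). In Ep1 compared to Ctrl the difference was -0.01 (95% interval -0.19 to 0.17, adjusted p = 0.953), with a sign that changed between alternatives.

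Pfkl, the liver-type subunit (ENSMUSG00000020277, chromosome 10, 77986947 to 78010083, minus strand), had 48.0, 49.6 and 46.0 FPKM in Ctrl, 46.2, 42.9 and 42.1 in Ep1, and 48.7, 43.6 and 39.6 in Ep2. The 3 groups overlapped, with Ep2 spread most widely. The difference was -0.13 in Ep1 (limma adjusted p = 0.265) and -0.13 in Ep2 (95% interval -0.29 to 0.04, adjusted p = 0.168). Without Ep2 replicate 1, Pfkl was lower in Ep2 than in Ctrl by -0.20 (adjusted p = 0.0180, range over the alternatives 0.0180 to 0.688). The muscle-type Pfkm, no member, had 25.5 to 31.9 FPKM over the 9 libraries and was called between the doses (0.16 higher in Ep2, adjusted p = 0.0411). That call was lost in 9 of 18 alternatives, the omission of any library other than Ep1 replicate 1 and Ep2 replicate 3 among them, up to an adjusted p of 0.134 without Ep1 replicate 2 (0.13). Against Ctrl, Pfkm in Ep2 passed in 2 of 18, with the trend of gene length (0.16, adjusted p = 0.0373) or of length and GC content removed (0.17, adjusted p = 0.0296).

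Aldoa encodes the main aldolase of most tissues. Its principal locus (ENSMUSG00000030695, chromosome 7, 126795234 to 126800751, minus strand) had 504, 522 and 474 FPKM in Ctrl, 504, 464 and 458 in Ep1, and 616, 540 and 515 in Ep2. The lowest Ep2 library fell within the Ctrl range but above all Ep1 libraries. The difference in Ep2 compared to Ctrl was 0.15 (95% interval -0.0040 to 0.31, limma adjusted p = 0.0922), and over the alternatives the adjusted p ranged from 0.00174 to 0.267, passing in 5 of 18, among them the omission of Ep2 replicate 3 (0.21, adjusted p = 0.0339). Compared to Ep1, Aldoa rose by 0.23 (adjusted p = 0.0258), a call lost without Ep1 replicate 2 (0.21, 0.0795), Ep1 replicate 3 (0.20, 0.0893), Ep2 replicate 1 (0.15, 0.0562) or a filter (0.23, 0.0702), in a range over the alternatives of 0.00246 to 0.0893.

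The other identifier named Aldoa (ENSMUSG00000114515, chromosome 7, 126800790 to 126809108, minus strand), called the short Aldoa locus here, lies directly upstream of the principal locus, with 799 bases of gene model. It held 18, 19 and 15 fragments in Ctrl (1.17, 1.22 and 1.01 FPKM), 9, 9 and 16 in Ep1 (0.610, 0.672 and 1.08 FPKM), and 4, 3 and 3 in Ep2 (0.263, 0.201 and 0.226 FPKM). All Ep2 libraries were below all others. The fitted difference in Ep2 was -0.79 compared to Ctrl and -0.53 compared to Ep1. The locus passed the filter through Ctrl and an Ep1 library and not through Ep2. These differences are therefore descriptive, and no p-value is given. On summed fragments per total, Ep2 was at 0.206 of Ctrl (exact interval 0.0932 to 0.409, counting error only) and at 0.298 of Ep1 (0.132 to 0.618). In each library the principal locus held at least 22641 fragments and this locus at most 19, and how the counting divided reads between overlapping transcripts of both is not given in the sources used here.

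Aldoc, the brain-type aldolase and not a member, was called higher in Ep2. It had 31.3, 35.7 and 34.2 FPKM in Ctrl, 38.0, 28.4 and 29.2 in Ep1, and 72.9, 69.7 and 64.9 in Ep2, a rise of 1.01 compared to Ctrl (limma adjusted p = 6.25e-05) that held in all 18 alternatives. Among the steps between aldolase and phosphoglycerate kinase, Tpi1, which interconverts the triose phosphates, had 461 to 487 FPKM in Ctrl, 411 to 456 in Ep1 and 477 to 558 in Ep2. It was called between the doses (0.26 higher in Ep2, adjusted p = 0.00767). Against Ctrl it was not called in the fit of all libraries, but in Ep2 it passed in 4 of 18 alternatives, among them the omission of Ep2 replicate 3 (0.18, adjusted p = 0.0247) and the removal of the trend with gene length and GC content (0.28, adjusted p = 0.00182).

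Gapdh, often used as a reference gene, had 7.03, 19.8 and 7.05 FPKM in Ctrl, 38.9, 17.0 and 54.3 in Ep1, and 8.89, 5.51 and 44.4 in Ep2, with overlap of all groups. Its libraries differed by several-fold within each group, unlike those of any member, and in the fit of all libraries it was called in no comparison (limma adjusted p = 0.207, 0.712 and 0.227 for Ep1 and Ep2 against Ctrl and Ep2 against Ep1). Without Ep2 replicate 3, Gapdh passed between the doses at -2.09 (adjusted p = 0.0343). Its transcript matched 79 other annotated loci at 95% identity or more over at least 300 bases, and these held 28.5% to 80.2% of the summed fragments, so its value is uncertain. Of the members, Hk1, Hk2, Pfkl, Pfkp and both Aldoa loci had 0 such copies. The copies held 2.94% to 4.01% of the summed fragments for Eno1, mostly on Eno1b, 0.930% to 1.14% for Pkm and under 0.7% for Gpi1, Pgk1 and Ldha.

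Pgk1 (ENSMUSG00000062070, chromosome X, 106187100 to 106203699, plus strand) encodes phosphoglycerate kinase, the first enzyme of the pathway to yield ATP. It had 673, 726 and 718 FPKM in Ctrl, 740, 665 and 672 in Ep1, and 929, 836 and 798 in Ep2. The Ep2 libraries were above all others, with replicate 1 again the highest. Pgk1 rose by 0.27 in Ep2 compared to Ctrl (SE 0.065, limma adjusted p = 0.00598) and by 0.30 compared to Ep1 (adjusted p = 0.00475), and both calls held in all 18 alternatives. In Ep1 the difference from Ctrl was -0.03 (95% interval -0.17 to 0.12, adjusted p = 0.816). In the same direction, the mutase Pgam1 of the next step had 328 ± 6.70 FPKM in Ctrl and rose to 389 ± 45.7 at 20 J/cm2 (SD, n = 3; log2 fold change 0.24, adjusted p = 0.0237), a call lost without Ctrl replicate 2 (0.24, 0.0580), Ctrl replicate 3 (0.22, 0.0675) or a filter (0.24, 0.0655), and the muscle-type Pgam2 rose from 2.21 ± 0.257 to 5.39 ± 0.677 FPKM (0.99, adjusted p = 3.28e-05).

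Eno1 (ENSMUSG00000063524, chromosome 4, 150236721 to 150248879, plus strand) encodes enolase 1, which forms phosphoenolpyruvate. It had 934, 964 and 939 FPKM in Ctrl, 867, 863 and 848 in Ep1, and 823, 814 and 791 in Ep2. The groups followed the light dose without overlap, and within each group its SD was the smallest of the 5 abundant members (16.3, 10.0 and 16.3 FPKM). In Ep2 compared to Ctrl, Eno1 fell by 0.23 on the log2 scale (SE 0.033, limma adjusted p = 0.000429), to a mean 14.5% lower, in a direction and with a call that held in all 18 alternatives. In Ep1 it fell by 0.14 (SE 0.033, adjusted p = 0.0326), and this call was lost in 9 of 18 alternatives, up to an adjusted p of 0.135 without Ctrl replicate 2. They were the omission of any Ctrl library, any Ep1 library or Ep2 replicate 2, no filter, and the removal of the trend with gene length and GC content. Between the doses the difference was -0.09 (adjusted p = 0.0601), which passed without Ep2 replicate 1 (-0.10, adjusted p = 0.0425, range over the alternatives 0.0425 to 0.211).

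Of the other enolases, Eno3, the muscle type, had 61.1, 61.4 and 62.1 FPKM in Ctrl, 52.1, 50.7 and 51.1 in Ep1, and 41.8, 41.0 and 35.5 in Ep2. As for Eno1, the groups did not overlap. Eno3 fell by 0.26 in Ep1 (limma adjusted p = 0.0248, lost without any single Ctrl or Ep1 library and without a filter, up to 0.0921) and by 0.63 in Ep2 (adjusted p = 2.7e-05). Eno2, the neuronal type, was at 1.53 to 3.39 FPKM and rose by 0.30 in Ep2 (adjusted p = 0.0261, lost without a filter, Ctrl replicate 1 or 2, or Ep2 replicate 2 or 3, up to 0.0906). The near-copy Eno1b had 70.9 to 89.7 FPKM and was called in no comparison.

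Pkm (ENSMUSG00000032294, chromosome 9, 59656368 to 59679375, plus strand) and Ldha (ENSMUSG00000063229, chromosome 7, 46841475 to 46855627, plus strand) close the route to lactate. Pkm had 861, 894 and 870 FPKM in Ctrl, 850, 829 and 812 in Ep1, and 869, 854 and 817 in Ep2. Its Ep1 libraries were all below its Ctrl libraries, by -0.08 on the log2 scale (95% interval -0.16 to 0.01, limma adjusted p = 0.214), and its Ep2 libraries overlapped Ctrl (-0.05, 95% interval -0.13 to 0.04, adjusted p = 0.310). Ldha had 893, 946 and 928 FPKM in Ctrl, 904, 865 and 850 in Ep1, and 928, 892 and 838 in Ep2. All groups of Ldha overlapped, with a difference of -0.08 in Ep1 (adjusted p = 0.289) and -0.06 in Ep2 (95% interval -0.16 to 0.05, adjusted p = 0.321). The value for Ldha in Ep2 turned positive, 0.11, once a trend with gene length and GC content was removed (adjusted p = 0.0515, range over the alternatives 0.0515 to 0.736).

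**Figure D3:**
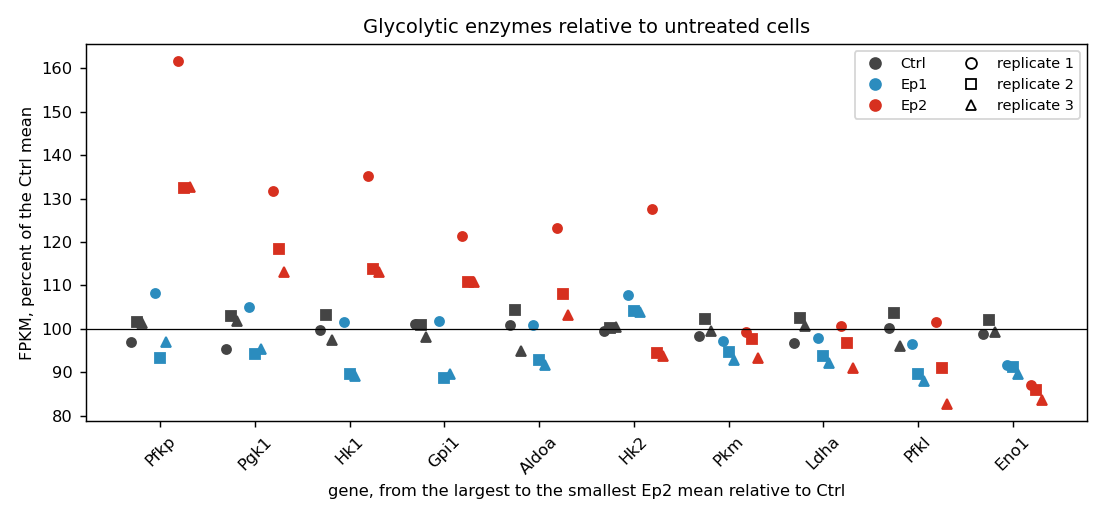
FPKM of each enzyme in each library as a percent of its Ctrl mean (vertical axis, line at 100), ordered from the largest to the smallest Ep2 mean relative to Ctrl, with color for the group and shape for the replicate. Ep2 replicate 1 (red circle) is the highest Ep2 library for 10 of 10 enzymes, Pfkp is the highest enzyme in each Ep2 replicate, and all Ep2 libraries of Eno1 lie below its Ep1 libraries.

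Summed over all isozymes of a step, the ratio of the Ep2 mean to the Ctrl mean was 1.13 for hexokinase, 1.14 for the isomerase, 1.09 for phosphofructokinase, 1.17 for aldolase, 1.21 for phosphoglycerate kinase and 1.19 for phosphoglycerate mutase. Without Ep2 replicate 1 these ratios were 1.04, 1.11, 1.03, 1.12, 1.16 and 1.11. The ratio was 0.858 for enolase, 0.967 for pyruvate kinase and 0.961 for lactate dehydrogenase, and 0.855, 0.955 and 0.938 without that library. The sums of phosphofructokinase, pyruvate kinase and lactate dehydrogenase overlapped between Ep2 and Ctrl, and neither Pkm nor Ldha was called. No test was made on these sums. The summed FPKM of the members overlapped between Ctrl (4089 to 4280) and Ep2 (3995 to 4442). That of all genes was 321686 to 326679 in Ctrl and lower in Ep2, at 304089 to 312881. As a share of the summed FPKM of all genes, the members held 1.29% ± 0.0202 in Ctrl (SD, n = 3), 1.21% ± 0.0599 in Ep1 and 1.36% ± 0.0621 in Ep2. The Ep2 libraries (1.31% to 1.43%) were above the Ctrl libraries (1.27% to 1.31%), by 5.39% of the Ctrl mean, in a two-sided exact permutation test (p = 0.1), the smallest p that 3 libraries against 3 allow. Ep1 was -6.15% from Ctrl with overlap (exact permutation p = 0.2), and Ep2 was 12.3% above Ep1 (exact permutation p = 0.1). Without Ep2 replicate 1, the excess of Ep2 over Ctrl was 2.65%. It was not seen in fragments: the members held 1.74% ± 0.0300 of the fragments on genes in Ctrl (SD, n = 3) and 1.74% ± 0.0885 in Ep2, with overlap (exact permutation p = 1), and 1.62% ± 0.0461 in Ep1.

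Within a step, the isozymes changed their proportions in Ep2. FPKM is per length, so isozymes were set side by side as shares of the summed FPKM of their step. The size of a share depends on the listed gene length, 13401 bases for Pfkp, 6675 for Pfkl and 3340 for Pfkm. In Ctrl, Pfkp held more fragments than Pfkl (6572, 6984 and 6621 against 6176, 6479 and 5706) but a smaller share. Pfkp made up 25.7% ± 0.529 of the phosphofructokinase FPKM in Ctrl (SD, n = 3), 27.1% ± 0.705 in Ep1 and 33.6% ± 1.04 in Ep2, while Pfkl went from 46.9% ± 1.23 in Ctrl to 45.4% ± 0.682 and 39.6% ± 1.07. Of the hexokinase FPKM, Hk1 made up 49.6% ± 0.716 in Ctrl and 46.5% ± 1.37 in Ep1, and it reached 53.0% ± 1.78 in Ep2. The share of Hk1 was thus lower than in Ctrl at the low dose and higher at the high dose, without overlap of the libraries. Of the aldolase FPKM, Aldoa made up 93.7% ± 0.451 in Ctrl and 93.7% ± 0.664 in Ep1, and 88.9% ± 0.442 remained in Ep2, with Aldoc at 6.33%, 6.26% and 11.1%. Eno1 stayed within 86.9% to 87.1% of the enolase FPKM in the means of the 3 groups, and Eno3 went from 5.67% ± 0.0956 in Ctrl to 4.23% ± 0.322 in Ep2. For Pfkp, Pfkl, Hk1, Aldoa and Eno3, the libraries of Ep2 and Ctrl did not overlap (two-sided exact permutation test, p = 0.1 each, the smallest it allows), so none of these shares can pass 0.05 in this design. For the share of Eno1 in Ep2 compared to Ctrl, the exact permutation p was 0.8.

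**Figure D4:**
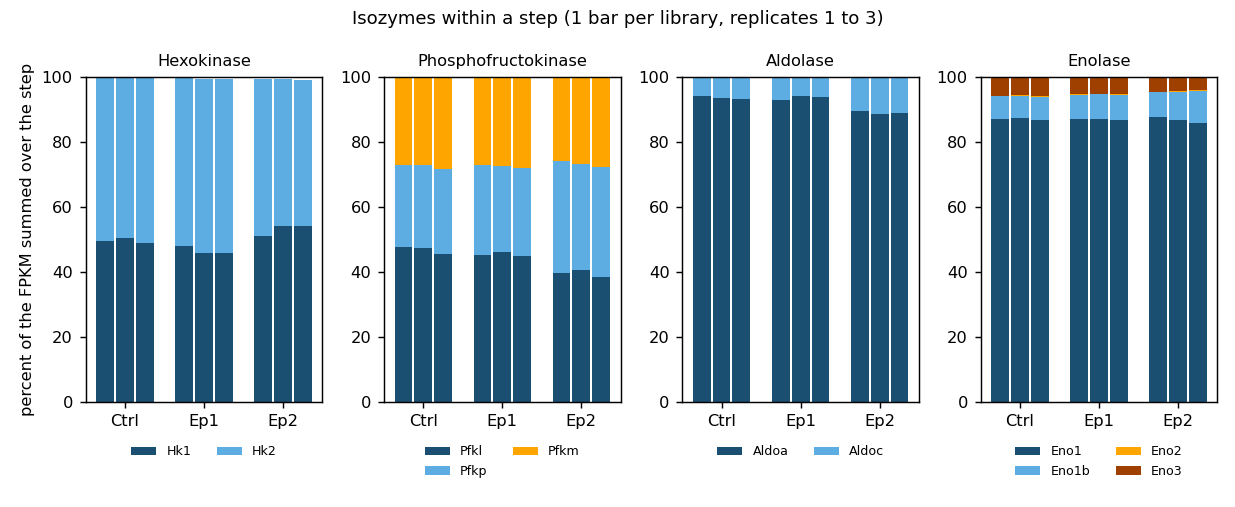
Share of each isozyme in the summed FPKM of its step (percent, vertical axis), with 1 stacked bar per library, ordered by group and then by replicates 1 to 3, for hexokinase, phosphofructokinase, aldolase and enolase. The share of Pfkp is largest in Ep2 (mean 33.6%, against 25.7% in Ctrl) and that of Aldoc as well (11.1%, against 6.33%); hexokinases under 1 FPKM are left white at the top.

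The wider pathway was taken from lists of its transporters, regulators and branches. Of all tested genes, 23.9% were called higher and 29.3% lower in Ep2 compared to Ctrl, and 6.32% and 4.97% in Ep1, so counts in these short lists are read as descriptions. Of the 6 tested hexose and lactate transporters (11 listed), 3 rose and 2 fell in Ep2 compared to Ctrl, 5 calls beside 53.2% of all tested genes. Slc2a1, the main glucose transporter of brain endothelium, had 91.7, 94.3 and 93.5 FPKM in Ctrl, 115, 97.4 and 94.8 in Ep1, and 164, 118 and 118 in Ep2 (log2 fold change 0.50 in Ep2, limma adjusted p = 0.00993). Like the members, it was highest in replicate 1 of both treated groups. Slc2a6 fell by 0.54 (adjusted p = 0.00100). Compared to Ep1, Slc2a8 rose by 0.56 (adjusted p = 0.000840), and the lactate carrier Slc16a1 fell by 0.41 (adjusted p = 7.14e-05).

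Of the 3 tested genes for control of fructose-2,6-bisphosphate, the main activator of phosphofructokinase, Pfkfb3 was the single call in Ep2 compared to Ctrl, beside the same 53.2%. Pfkfb3 rose by 0.37, from 6.86 ± 0.432 to 9.20 ± 0.703 FPKM (SD, n = 3; limma adjusted p = 0.000889). Pfkfb4 fell by 0.26 in Ep1 (adjusted p = 0.0313, lost without a filter, Ctrl replicate 1 or 2, or any Ep1 library, up to 0.125). Of 11 tested genes for pyruvate entry into mitochondria, 3 rose and 1 fell in Ep2, against 23.9% and 29.3% of all tested genes. Pdk1, the kinase that switches off pyruvate dehydrogenase, rose by 0.49 (24.5 ± 0.437 to 34.7 ± 1.09 FPKM, adjusted p = 6.74e-05), and Pdhx, a structural subunit of that complex, fell by 0.34 (adjusted p = 0.000290). The remaining rises, named after their values were seen, were Pdp1 (0.35, adjusted p = 0.00483) and Mpc1 (0.33, adjusted p = 0.0120). The effect of these changes on pyruvate entry was not tested.

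Of 14 tested genes of side branches (16 listed), 7 rose and 2 fell in Ep2 (background 23.9% and 29.3%), and 1 rose and 1 fell in Ep1 (6.32% and 4.97%). Gfpt1, which opens the hexosamine branch, rose by 0.50 in Ep2 compared to Ctrl (limma adjusted p = 0.000435), and Pgm2 rose by 0.46 compared to Ep1 (adjusted p = 0.000615). Phgdh, which draws 3-phosphoglycerate into serine synthesis, fell by 0.28 in Ep2 (356 ± 10.9 to 293 ± 12.7 FPKM, SD, n = 3, adjusted p = 0.000454), a call that held in all 18 alternatives, at -0.08 with the trend of gene length and GC content removed (adjusted p = 0.0418). In Ep1, Gpd2 rose by 0.19 (adjusted p = 0.0450), a call lost in 9 of 18 alternatives, among them the omission of any Ctrl or Ep1 library, up to 0.247. The glycogen phosphorylase Pygb fell by 0.28 (adjusted p = 0.0124), lost without Ctrl replicate 2 (0.0591) or Ep1 replicate 3 (0.0594). Of the 3 tested genes of gluconeogenesis, 2 fell in Ep2 (29.3% of all tested genes), with G6pc3, a glucose-6-phosphatase, at -0.44 (adjusted p = 0.000384).

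Of 15 tested regulators (17 listed), 7 rose and 4 fell in Ep2, and 1 rose and 1 fell in Ep1, against the same shares of all tested genes. Myc had 3.07, 3.50 and 3.47 FPKM in Ctrl, 4.60, 3.58 and 4.04 in Ep1, and 6.10, 5.84 and 6.05 in Ep2, a rise of 0.69 in Ep2 (limma adjusted p = 8.58e-05). All Ep1 libraries of Myc were also above Ctrl, at 0.22 (adjusted p = 0.0945). Egln1, Egln2 and Egln3 encode the oxygen-sensing hydroxylases, which mark hypoxia-inducible factors for degradation. Egln2 fell by 0.31 in Ep2 compared to Ctrl (adjusted p = 0.00217), a call lost with the trend of gene length and GC content removed (-0.11, adjusted p = 0.121). Egln3 rose by 0.65 in Ep2 compared to Ctrl (adjusted p = 0.0304) and by 0.62 compared to Ep1 (adjusted p = 0.0418), with 62.3 FPKM in Ep2 replicate 1 and 35.1 and 34.7 in the other two. Its call between the doses was lost in 9 of 18 alternatives, among them the omission of any Ctrl or Ep1 library, up to 0.113. Egln1, named after its values were seen, rose by 0.60 in Ep2 compared to Ctrl (adjusted p = 0.000340). Of the hypoxia-inducible factors and their partners in the list, also named after their values were seen, Hif1a (0.28, adjusted p = 0.0475), Arnt (0.20, 0.0127) and Vhl (0.30, 0.0226) were called higher. Hif1a had 25.8, 24.4 and 25.9 FPKM in Ctrl and 25.4, 32.3 and 36.1 in Ep2, so these groups overlapped. Its Ep1 libraries (31.9, 30.2 and 31.2 FPKM) were all above Ctrl, at 0.29 (adjusted p = 0.106). The alternatives are not given for Egln1, Hif1a, Arnt and Vhl. Epas1 (0.22, adjusted p = 0.0970) was not called. In Ep1 compared to Ctrl, the kinase genes Prkaa1 (0.17 higher, adjusted p = 0.0255, lost in 7 of 18 alternatives, among them the omission of Ctrl replicate 1 or 2 or any Ep1 library, up to 0.114) and Mtor (0.17 lower, adjusted p = 0.0454, lost in 9 of 18, among them the omission of Ctrl replicate 1 or 2, any Ep1 library or Ep2 replicate 2, up to 0.163) were the 2 calls. The median log2 fold change in Ep2 compared to Ctrl was 0.17 for the regulators, 0.24 for the side branches, 0.27 for the transporters, 0.07 for pyruvate entry, -0.04 for control of fructose-2,6-bisphosphate and -0.26 for gluconeogenesis, beside -0.03 for all tested genes.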

How the data were processed

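RNA of 9 B.END3 libraries (Ctrl, Ep1 and Ep2, n = 3 each, grouped by the treatment in their labels) was sequenced with paired-end reads, and the authors deposited FPKM per gene, that is, scaled by gene length and by library depth. The methods name GRCm39 and the submitters' processing notes list mm8 and Bowtie 0.12.2, while the listed coordinates overlapped GRCm38.p6 for 99.9% of 37775 genes and GRCm39 for 10.9% of 50414, so positions here are GRCm38. The counting tool is not given in the sources used here. The 9 single-library tables equalled the joint table.

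FPKM times gene length gave whole fragments (to within 0.05) for 100% of values in every library. Floors and intervals on fragments cover counting error only, and libraries of a group differed by more than counting noise (chi-square per degree of freedom 2.81 to 15.3), which makes replicate spread the limit on precision. log2(FPKM + 1) of 11727 genes with at least 1 FPKM in at least 3 libraries was fitted with limma 3.58.1 (R 4.3.3; all 9 libraries, trend and robust estimation) with Benjamini-Hochberg adjustment within each comparison. The pseudocount of 1 understates changes of low genes. Shares were compared by two-sided exact permutation tests (scipy 1.17.1). Promoter sequences are from RefSeq (GRCm38.p6); copies were searched in GENCODE M39 transcripts.

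The members and lists were chosen with earlier results of these data known. Named genes were the members, Tpi1, Gapdh, Pgam1, other isozymes of at least 1 FPKM, the largest called rise and fall of each list in each comparison, and nearest profiles. Alternatives were median centring, no filter, a mean of at least 5 FPKM, a pseudocount of 0.1, a replicate block, only the groups compared, voom on recovered fragments (14112 genes with at least 10 fragments in at least 3 libraries), removal of a gene length trend, omission of each library, and, chosen after seeing the data, removal of a trend with gene length and GC content and the members as a share of fragments. The fit was also run on simulated counts with the same spread for every gene and library. That setting is simpler than these libraries, so the run does not bear on the results above.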

Additional observations from a re-analysis of the deposited data

How the results depend on the processing

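Of the alternative values for single genes, 1363 kept their direction and side of the threshold, 85 lost the call, 21 gained it and 30 changed direction. The count of members called in Ep1 was 0 without a filter and 0 after removal of the trend with gene length and GC content (chosen after seeing the data), and 0 to 1 when a library was left out, while the numbers at an unadjusted p below 0.05 were 2 without a filter and 1 with the trend removed. All tested genes called in Ep1 numbered 396 without a filter, where 26717 genes were tested, 2162 with only the groups compared, 1993 with voom and 191 to 2183 when a library was left out. Past the fold threshold, 0 members passed in Ep2 compared to Ctrl with the stricter filter, which removes the short Aldoa locus. Between the doses, 1 identifier passed with a pseudocount of 0.1, 1 with voom and 0 to 1 when a library was left out. In each case it was the short Aldoa locus, whose differences are only described.

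As a share of fragments instead of FPKM (chosen after seeing the data), the members together were -0.0298% from Ctrl in Ep2. Directions near 0 turned. With removal of the length and GC trend, the log2 fold change of Hk2 between the doses was 0.0069, of Aldoa in Ep1 0.0065, of Pkm in Ep2 0.011, of Eno1b in Ep1 0.084, of Pgk1 in Ep1 0.015, and of Ldha 0.0025 in Ep1 and 0.11 in Ep2. With removal of the length trend alone it was 0.0038 for Hk2, 0.028 for Eno1b, 0.0052 for Pgk1 and 0.021 for Ldha in Ep2. For Hk2 between the doses it was 0.012 with median centring and 0.024 with voom. The cause was not tested.

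When a library was left out, the log2 fold change of Hk2 ranged from -0.085 to 0.13 in Ep2 and from -0.16 to 0.060 between the doses, lowest in both without Ep2 replicate 1. It ranged from -0.069 to 0.034 for Pfkp in Ep1, from -0.077 to 0.00043 for Pgk1 in Ep1, from -0.072 to 0.074 for Pfkl and from -0.013 to 0.060 for Ldha between the doses. It ranged from -0.46 to 0.94 for Gapdh in Ep2, and for Eno1b from -0.031 to 0.012 in Ep1, from -0.025 to 0.14 in Ep2 and from -0.015 to 0.15 between the doses, negative in the last 2 without Ep2 replicate 3. The difference in isozyme share for Aldoa in Ep1 ranged from -0.182 to 0.443 percentage points, and that of Eno1 from -0.291 to 0.00077 in Ep1, from -0.673 to 0.182 in Ep2 and from -0.549 to 0.306 between the doses.

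Replicate numbers did not pair the libraries: deviations of same-numbered libraries had correlations from -0.056 to 0.074 over 9 pairs. Without a block, 1, 5 and 5 of the 10 principal loci were called in Ep1, in Ep2 and between the doses. With the replicate number as a block, these calls were kept. Of all tested genes, 1051, 6110 and 4983 were called with the block. The added call was the principal Aldoa locus in Ep2 (adjusted p = 0.0378 in limma). The low fragment number of the short Aldoa locus limits its value. The other members had at least 2395 fragments in every library.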

Other observations

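The genes with the profile nearest to a member over the 9 libraries were found by the root mean square distance of centred log2(FPKM + 1). For the short Aldoa locus, the member with the largest absolute change in Ep2, they were Tysnd1 (distance 0.0811), Clpp (0.0856), Aspg (0.0858), Tyw1 (0.0867) and Ogg1 (0.0868), a description that shares the low fragment number of that locus. For Pfkp and Eno1, which were chosen after their values were seen, the nearest were Tex2 (0.0425), Pold4, Acap1, Flt1 and Optn, and Mrps35 (0.0245), Madd, Anapc11, Tpd52l2 and Pex13. With the fragments of its copies added, Gapdh held 1649 to 2735 fragments in the Ctrl libraries, 2480 to 5861 in those of Ep1 and 1967 to 4258 in those of Ep2.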
